A study of Mus musculus with 20 samples.

Results

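The EGF family ligands and their ErbB receptors were examined in the cecum of mice fed RPS (raw potato starch). The 10 members were taken by gene symbol, and comprised the ligands Areg, Ereg, Hbegf, Tgfa, Btc, Epgn, and Nrg1 and the receptors Egfr, Erbb2, and Erbb3, out of 19887 genes in the count table. They matched 11 rows of that table, because Nrg1 had 2 identifiers, of which the second was a 186-base locus with 0 counts in all 20 mice. All 10 members passed the filter on low counts, as did 15348 genes in all, although Epgn had only 0 to 19 counts per mouse.

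RNA from tissue sections of the cecum was sequenced from 20 C57BL/6 mice, 5 on each of 4 diets. All mice received the Total Western Diet (TWD), a rodent diet modelled on American nutrient intake, from 3 weeks of age for 6 weeks. They then ate either the same TWD, as the 0% RPS group, or the TWD with 2, 5, or 10% RPS for 3 more weeks. The comparison asks how the dose of a fermentable starch, given on a Western diet, changes gene expression in the cecum. Total counts ranged from 14967798 to 42687283 per mouse, and values below are CPM, read counts scaled to library size with TMM factors. All 8 epithelium markers were well detected, with a summed level of 11139 to 18188 CPM, and all 6 smooth muscle markers were present, so the tissue held muscle as well as mucosa. The libraries of 3 mice, mouse 5 on 0%, mouse 3 on 2%, and mouse 4 on 5% RPS, stood apart from the others of their diet. Their chi-square per degree of freedom against each diet mate was at least 91.0, 91.0, and 67.2, where pairs among those mates reached at most 55.8. These 3 also had the highest shares of mitochondrial transcripts, 13.0, 13.8, and 15.4% of counts. On 10% RPS mouse 2 was the most distant, at 33.8 or more against 29.3 among its mates. Results are given with these 3 libraries and, where they differ, without them. In such bulk tissue, fewer cells of a type and less RNA per cell cannot be told apart.

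EGF family ligands are made as membrane proteins, from which ADAM proteases release the active growth factor. Areg (amphiregulin), Ereg (epiregulin), Hbegf (heparin-binding EGF-like growth factor), Tgfa (transforming growth factor alpha), Btc (betacellulin), and Epgn (epigen) bind the EGF receptor, whereas Nrg1 (neuregulin 1) binds ErbB3 and ErbB4. Ligand binding pairs the receptors, which signal through the RAS, MAP kinase, and PI3 kinase cascades, and in the gut this pathway is known for epithelial growth, migration, and repair. ErbB2 has no known ligand and serves as a partner, and ErbB3 has little kinase activity of its own.

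Both members that changed with the highest dose were ligands. With 10% compared with 0% RPS, 2 of the 10 members, Areg and Btc, fell past the threshold (an adjusted p of at most 0.05 and a fold change of at least 1.5), and none rose. Among all genes tested, 0.495% were called lower and 1.04% (160 genes) in either direction. This background moved with single mice, to 14 genes when mouse 3 of the 10% group was left out and to 344 when mouse 2 of the 0% group was. Tgfa also reached an adjusted p within 0.05 but its fold change was under 1.5, which made 3 of 10 members by the adjusted p alone, beside 1.86% of all genes. At an unadjusted p under 0.05 there were 6 members, beside 19.5% of all genes. The estimates of 8 members, the 7 ligands and Egfr, were below 0, as were 49.1% of all genes. The median log2 fold change was -0.83 for the members and 0.0041 for all genes. Because the members were chosen with these results known, the shares are a description.

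The promoters of Areg and Btc are shown because these were the members past the threshold. Each is the 250 bases before the RefSeq gene start on GRCm38.p6, 5′ to 3′ on the gene's strand, at chr5:91139349-91139598 (plus strand) for Areg and chr5:91402995-91403244 (minus strand) for Btc. Capitals mark matches to the motifs searched on both strands.
Areg: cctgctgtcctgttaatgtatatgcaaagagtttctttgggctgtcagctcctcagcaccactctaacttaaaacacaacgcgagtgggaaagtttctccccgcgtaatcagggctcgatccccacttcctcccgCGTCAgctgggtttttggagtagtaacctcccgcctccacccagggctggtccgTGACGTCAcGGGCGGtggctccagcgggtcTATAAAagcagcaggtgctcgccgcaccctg
Btc: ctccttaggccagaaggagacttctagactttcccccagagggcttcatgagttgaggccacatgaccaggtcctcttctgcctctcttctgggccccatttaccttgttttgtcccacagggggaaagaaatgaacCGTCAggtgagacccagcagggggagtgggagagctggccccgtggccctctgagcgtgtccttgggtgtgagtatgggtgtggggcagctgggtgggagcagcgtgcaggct
In the Areg window the capitals were, in order, the half-site TGACG on the opposite strand, the full cAMP response element (CRE) TGACGTCA, the SP1 letters GGGCGG, and the TATA letters TATAAA. The full CRE lay at -61 to -54 from the start and itself contains the half-site on both strands. The SP1 letters lay at -52 to -47 and the TATA letters at -31 to -26. The Btc window held only a half-site, at -113 to -109, and the matching half-site of Areg lay at -115 to -111. Epgn (-101 to -97) and Erbb2 (-171 to -167), which were not called, also had a half-site, so 4 of the 6 member promoters examined held it. Among 32851 RefSeq windows of this length, 1.55% held the full CRE, 17.8% the half-site, 32.7% the SP1 letters, and 12.4% the TATA letters. Neither window held the AP-1 letters TGANTCA (6.75% of windows) or the TEAD letters GGAATG (12.6%). A match of letters is not evidence of binding. Promoters of 6 of the 10 members were examined. Those of Ereg, Hbegf, Nrg1, and Erbb3 were not, so whether they held these motifs was not tested.

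Areg was the member with the largest fall. Amphiregulin is an EGF receptor ligand of epithelia and is also made by immune cells. On GRCm39 the gene (ENSMUSG00000029378) lies at chr5:91287451-91296291 on the plus strand. Its level was 159, 83.9, 112, 197, and 129 CPM in the 5 mice on 0% RPS. With 10% RPS it was 43.1, 25.6, 41.5, 43.3, and 67.1 CPM, so that every mouse on 10% lay below every mouse on 0%. The intermediate diets spread between these groups, with 103, 100.4, 52.1, 67.2, and 114 CPM on 2% RPS. On 5% RPS the 5 mice had 109.6, 134, 57.7, 122, and 38.8 CPM and fell into a higher set of 3 and a lower set of 2. The lower 2, mice 3 and 5, had the smallest libraries of that diet, at 14967798 and 21583133 total counts. A part of depth in this split was not tested. The mean was 136 ± 43.8 CPM (SD, n = 5) on 0% and 44.1 ± 14.8 CPM on 10% RPS. This was a 3.09-fold fall (log2 fold change -1.63, SE 0.34, adjusted p = 0.0267, edgeR's quasi-likelihood test with Benjamini-Hochberg adjustment). The 95% interval of the log2 fold change was -2.33 to -0.92.

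Btc was the other member past the threshold, at a much lower level. Betacellulin activates both the EGF receptor and ErbB4. The gene (ENSMUSG00000082361) lies on the minus strand at chr5:91505120-91550883 on GRCm39. Btc measured 9.83, 4.82, 4.24, 8.33, and 4.02 CPM on 0% RPS, with mice 1 and 4 well above the other 3 of their diet. On 10% RPS it measured 2.27, 2.22, 3.07, 3.96, and 4.01 CPM, and the highest of these was only just under the lowest on 0% RPS. The mean fell from 6.25 ± 2.66 to 3.10 ± 0.872 CPM (SD, n = 5), which was 2.02-fold (log2 fold change -1.01, SE 0.26, adjusted p = 0.0487 in the edgeR test). These were 113 to 302 counts per mouse on 0% and 65 to 107 on 10% RPS.

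Tgfa was lower by little but evenly, and its fold change was under the threshold. Transforming growth factor alpha is the EGF receptor ligand typical of surface epithelium. Its level was 96.6, 94.7, 93.8, 93.8, and 108 CPM on 0% RPS, and 70.8, 75.7, 73.0, 88.4, and 78.6 CPM on 10% RPS, again without overlap. The mean was 97.4 ± 6.11 CPM on 0% and 77.3 ± 6.86 CPM on 10% RPS (SD, n = 5), which was 1.26-fold lower (log2 fold change -0.33, SE 0.086, adjusted p = 0.0487 in the edgeR test). With the smooth muscle markers in the model, described below, it was -0.23, and the adjusted p over 14 alternative settings was 0.010 to 1. Areg, Tgfa, and Btc were thus the 3 of 10 members whose mice on 10% RPS all lay below those on 0%, and 3.20% of all genes did so.

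The calls of Areg and Btc depended on the model more than their direction did. Without the 3 libraries that stood apart, left out after the data were seen, both were called, with log2 fold changes of -1.64 (adjusted p = 0.0283) and -1.14 (adjusted p = 0.0245), and 317 genes in all were called. When the mean log2 CPM of the epithelium markers was added to the model, Areg had a log2 fold change of -1.55 (SE 0.40, adjusted p = 0.119). With the smooth muscle markers it was -1.53 (SE 0.41, adjusted p = 0.13), and with the B cell markers, a covariate added after the data were seen, it was -1.50 (SE 0.40, adjusted p = 0.0695). The size of the fall therefore changed little and its error grew. For Btc the same covariates gave -0.86, -0.72, and -1.01, with adjusted p of 0.219, 0.22, and 0.0859. Over the 14 alternative settings the adjusted p was between 6.46e-05 (DESeq2) and 0.751 (glmTreat, against a 1.5-fold change) for Areg and between 0.0066 and 1 for Btc. Leaving out 1 mouse at a time kept Areg past the threshold in 14 of 20 fits (adjusted p 0.0188 to 0.0874) and Btc in 5 of 20 (adjusted p 0.0338 to 0.15). Btc kept its call only without mouse 2 on 0%, mouse 3 on 2%, mouse 2 or 4 on 5%, or mouse 4 on 10% RPS. Areg lost its call without mouse 3, 4, or 5 on 0% RPS, or without mouse 1, 2, or 3 on 10% RPS, and in these fits no member was called.

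With 10% compared with 0% RPS the marker lists had these values. Estimates of the epithelium markers were below 0 in 8 of 8, with 2 at an unadjusted p under 0.05 and none called, and their summed level was 12947 to 16051 CPM on 0% and 11139 to 15920 CPM on 10% RPS. Goblet cell markers were below 0 in 7 of 7 with 1 called lower (Zg16), and their sum was 8389 to 11427 CPM on 0% and 6740 to 8132 CPM on 10% RPS. Smooth muscle markers were above 0 in 6 of 6 with 1 called higher (Actg2), and summed to 2441 to 5668 CPM on 0% and 3993 to 6694 CPM on 10% RPS. B cell markers were above 0 in 5 of 5 with none called, and summed to 4.71 to 184 CPM on 0% and 13.0 to 241 CPM on 10% RPS. No marker of these 4 lists was at 0 in any mouse. Of the other lists (fibroblasts, enteric neurons and glia, T cells, macrophages, neutrophils, mast cells, group 2 innate lymphoid cells, mesothelium, and adipocytes), no marker was called. Some of these lists had estimates mostly above 0 with 10% RPS. T cell markers were below 0 in 1 of 5 (median log2 fold change 0.45) and macrophage markers in 0 of 5 (median 0.23). The 2 mesothelium markers tested had a median of 1.14, and the 1 neutrophil marker tested was at 0.54. Several lists had estimates below 0 with 10% RPS, as the ligands did. Adipocyte markers were below 0 in 3 of 3 (median log2 fold change -0.95), with SEs of 0.29 (Cidec), 1.33 (Plin1), and 1.44 (Adipoq). Their sum was 63.0 to 120.4 CPM on 0% and 21.5 to 111 CPM on 10% RPS. Mast cell markers were below 0 in 4 of 5 (median -0.74), with sums of 39.9 to 81.3 and 36.1 to 56.6 CPM, and enteric neuron and glia markers in 7 of 7 (median -0.30). Of the 2 innate lymphoid cell markers tested, Il1rl1 had a log2 fold change of -1.35 (SE 0.51, edgeR adjusted p = 0.16) and Gata3 one of 0.42. Counts of 0 in at least 1 mouse were found for S100a8, S100a9, Cxcr2, Fcer1a, Il5, Il13, Upk3b, Wt1, Adipoq, and Plin1. Of the 7 fibroblast markers, Pdgfra (-0.31) and Pdgfrb (-0.29) were below 0 with 10% RPS, both at an unadjusted p under 0.05. Another 3 were above 0 at such a p. With 5% RPS the fibroblast markers had a median of 0.37, against 0.28 with 10% RPS. At 5%, none of the 5 mast cell markers was below 0 (median 0.23). Beyond the covariates above, their part in the fall of the ligands was not tested.

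Hbegf, Ereg, and Nrg1 had estimates below 0 that did not pass the threshold. Hbegf, a ligand that binds heparan sulfate, was 103, 44.6, 54.4, 93.9, and 43.2 CPM on 0% RPS, with mice 1 and 4 high. On 10% RPS it was 36.1, 36.8, 32.3, 40.2, and 53.2 CPM, and the groups overlapped. The log2 fold change was -0.77 (SE 0.25, edgeR adjusted p = 0.106), and DESeq2 called Hbegf with an adjusted p of 0.0303. Its adjusted p over the 14 settings was between 0.0303 and 1.

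The Ereg estimate rested largely on 1 mouse. Epiregulin, a low-affinity ligand of the EGF receptor and ErbB4, measured 56.9, 13.3, 8.10, 23.9, and 7.92 CPM on 0% RPS, and mouse 1 was far above the rest. On 10% RPS the level was 10.5, 6.53, 8.12, 6.36, and 10.8 CPM, of which mice 2 and 4 were below every mouse on 0% RPS and the other 3 overlapped the lower mice of that diet. The log2 fold change was -1.38 (SE 0.50, edgeR adjusted p = 0.147), and it was -0.65 without mouse 1 on 0% RPS. Nrg1, the ligand of ErbB3 and ErbB4, was 23.0, 18.0, 10.2, 19.8, and 9.18 CPM on 0% and 8.64, 4.85, 5.69, 11.7, and 12.8 CPM on 10% RPS. Its groups overlapped, with a log2 fold change of -0.88 (SE 0.33, edgeR adjusted p = 0.152), and with the smooth muscle markers in the model this was -0.39 (adjusted p = 0.539). Epgn was near the limit of counting. Its mean was 0.296 ± 0.146 CPM on 0% and 0.158 ± 0.163 CPM on 10% RPS (SD, n = 5), where 3 counts amounted to 0.0698 to 0.19 CPM depending on the library. A change in Epgn was not detectable at this depth (log2 fold change -0.94, SE 0.77).

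The receptors were narrow in spread and similar between diets. Egfr, the receptor of the first 6 ligands, was 41.7, 38.9, 33.0, 31.8, and 28.9 CPM on 0% RPS and 30.8, 28.7, 30.4, 34.5, and 35.4 CPM on 10% RPS. Its log2 fold change was -0.13, with a 95% interval of -0.32 to 0.074. Erbb2 was 277 ± 16.1 CPM on 0% and 302 ± 43.1 CPM on 10% RPS (SD, n = 5), with a log2 fold change of 0.13 and an interval of -0.086 to 0.34. Erbb3 was 391 ± 41.6 and 444 ± 78.5 CPM, with a log2 fold change of 0.18 and an interval of -0.060 to 0.43. No receptor passed the threshold (edgeR adjusted p of 0.491, 0.517, and 0.398), no receptor had an unadjusted p under 0.05, and DESeq2 called none of them. A p that misses the threshold does not show that the receptors were equal between diets.

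**Figure D1:**
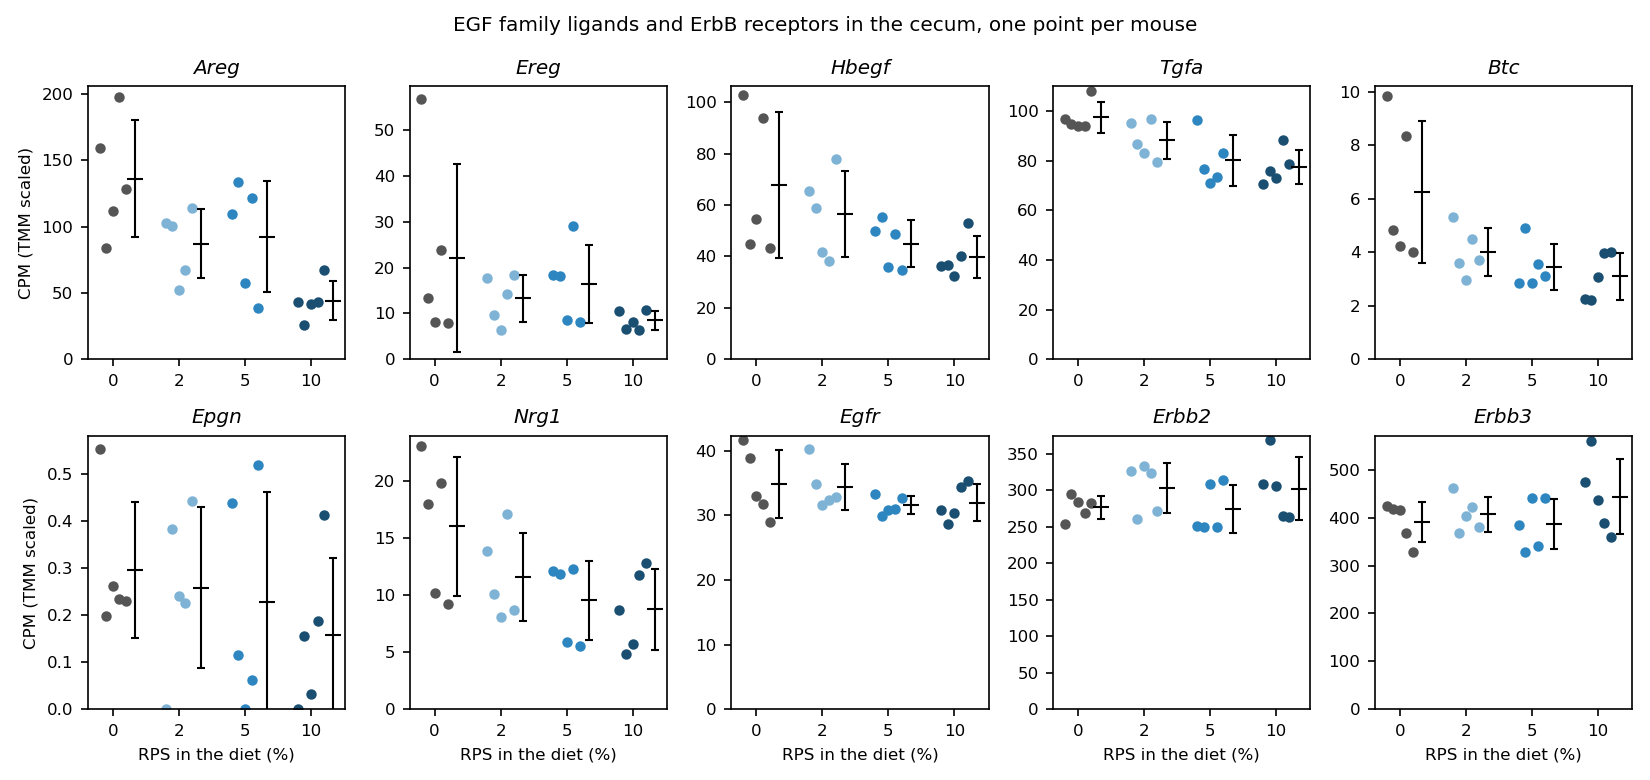
Level of each member (y axis, CPM scaled by TMM, linear from 0) against the percentage of RPS in the diet (x axis), with 1 point per mouse and the mean ± SD of 5 mice beside each group. Areg, Tgfa, and Btc on 10% RPS lie below all mice on 0% RPS, mouse 1 on 0% RPS stands at 56.9 CPM for Ereg, and the receptor groups overlap.

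With 5% compared with 0% RPS, 0 of the 10 members passed the threshold in edgeR and 0 in DESeq2, beside 0.195% of all genes in edgeR (30 genes, and 0 without mouse 5 to 114 without mouse 1 on 5% RPS). At an unadjusted p under 0.05 there were 4 members (Hbegf, Tgfa, Btc, and Nrg1), beside 13.3% of all genes. All 10 estimates were below 0, as were 50.5% of all genes, but Erbb2 (-0.011) and Erbb3 (-0.015) were close to 0. The sign of 4 of them, Ereg, Epgn, Erbb2, and Erbb3, turned when 1 mouse was left out, with values of up to 0.31 for Ereg. Btc was 2.85, 4.89, 2.85, 3.56, and 3.11 CPM on 5% RPS, mostly under the 0% group, with a log2 fold change of -0.85 (SE 0.26, edgeR adjusted p = 0.13). Tgfa had 96.2 CPM in mouse 1 and 71.0 to 83.3 CPM in the other 4 mice on 5% RPS (log2 fold change -0.28, edgeR adjusted p = 0.128). Areg had a log2 fold change of only -0.56 (SE 0.33), and 3 of its 5 mice lay within the range of the 0% group. The smooth muscle markers were above 0 in 6 of 6 at this dose, all 6 at an unadjusted p under 0.05 and 1 called higher (Actg2), with a median log2 fold change of 0.91, against 0.69 with 10% RPS. Their sum was 4154 to 9680 CPM on 5% RPS. Goblet cell markers were below 0 in 6 of 7 (4 at an unadjusted p under 0.05, median -0.42) and epithelium markers in 8 of 8 (1 at such a p, median -0.15), with none called. With the smooth muscle markers as covariate, log2 fold changes at this dose were -0.46 for Btc, -0.15 for Tgfa, and -0.065 for Nrg1. Without that covariate they were -0.85, -0.28, and -0.74.

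With 2% compared with 0% RPS, 0 members passed in edgeR and 0 in DESeq2, and the share of all genes called was 0%. Only Btc had an unadjusted p under 0.05 (log2 fold change -0.64, SE 0.26), which was 1 of 10 members beside 5.77% of all genes, and 8 members had estimates below 0, beside 49.0% of all genes. Areg had a log2 fold change of -0.64 (SE 0.33) at this dose. These 3 comparisons share the 5 mice on 0% RPS, so their estimates are not independent of each other.

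The 10% and 5% diets share no mice. Between them, 0 of 10 members were called by edgeR or by DESeq2, and 0% of all genes. Areg was the 1 member with an unadjusted p under 0.05, beside 2.79% of all genes, and its log2 fold change was -1.07 (SE 0.33, edgeR adjusted p = 1). The other members had log2 fold changes of -0.96 (Ereg) to 0.20 (Erbb3), and 7 of 10 members were below 0, beside 49.7% of all genes.

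**Figure D2:**
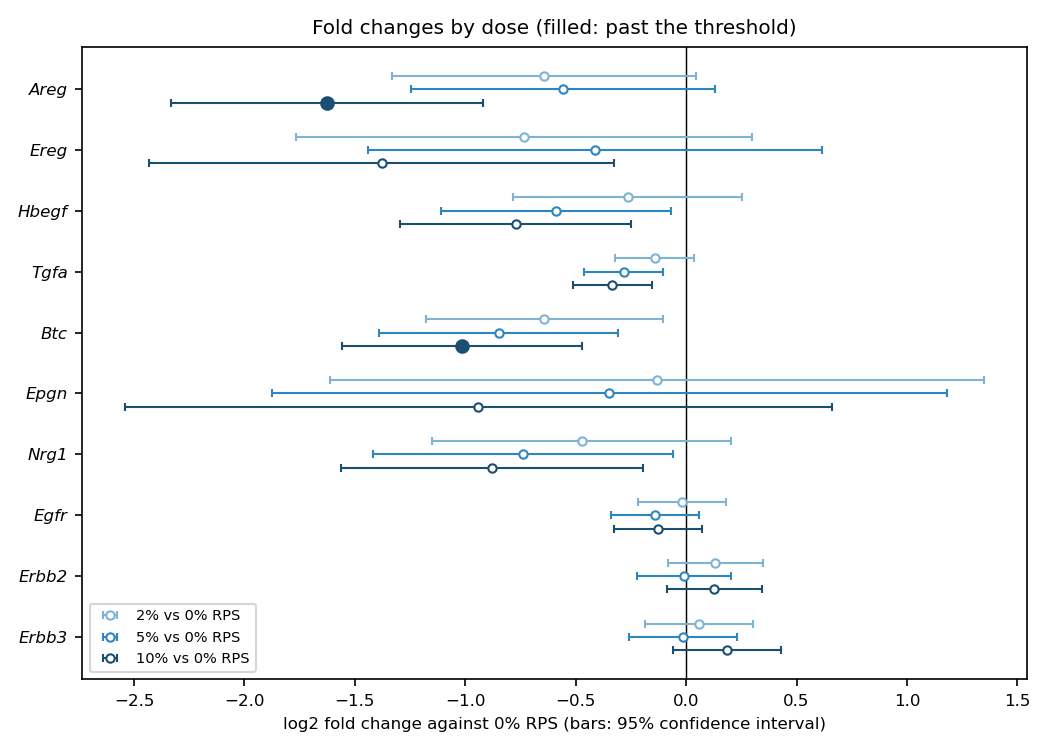
Log2 fold change of each member against 0% RPS (x axis, bars give the 95% confidence interval) for the diets with 2, 5, and 10% RPS, all compared with the same 5 mice. Filled points passed the threshold, which were Areg (-1.63) and Btc (-1.01) with 10% RPS, and all 3 receptors stay close to 0.

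A log-linear slope on RPS dose was called for 1 of 10 members, beside 0.730% of all genes called with a falling trend. Trend calls over all genes in either direction, 170, numbered 0 when mouse 1 of the 10% group was left out and 674 when mouse 3 of the 2% group was. This was Areg, with a slope of -0.147 log2 units per 1% RPS (SE 0.033, edgeR adjusted p = 0.041). Btc (slope -0.091, adjusted p = 0.0683), Tgfa (-0.032, 0.0538), and Hbegf (-0.076, 0.091) missed the threshold. At an unadjusted p under 0.05 there were 6 members, beside 18.8% of all genes. With DESeq2 4 members passed, namely Areg, Hbegf, Tgfa, and Btc, and the same 4 passed in edgeR without the 3 libraries that stood apart, where 888 genes in all had a trend call. The Areg slope was also past the threshold in 9 of the 20 fits without 1 mouse and in 7 of 11 other settings of the same unit (adjusted p 0.00104 to 0.24), with slopes of -0.163 to -0.131 without 1 mouse. A test of any difference among the 4 diets called 0 members in edgeR, beside 0.0912% of all genes (14 genes, and 3 when mouse 1 of the 0% group was left out to 103 when mouse 4 of the 10% group was). In that test 4 members (Areg, Hbegf, Tgfa, and Btc) had an unadjusted p under 0.05, beside 11.1% of all genes, and DESeq2 called 3 (Areg, Tgfa, and Btc).

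Per length, the ligand Areg and the receptors Erbb3 and Erbb2 were the most abundant members. As CPM per kb of summed exon length over 20 mice, Areg was 73.6 ± 37.3, Erbb3 64.6 ± 8.80, and Erbb2 53.4 ± 6.19 (SD). Tgfa at 12.5 ± 1.58 and Hbegf at 10.2 ± 3.82 followed. Ereg (3.38 ± 2.62) and Egfr (2.87 ± 0.31) were lower by this level, and Btc (0.924 ± 0.414), Nrg1 (0.687 ± 0.296), and Epgn (0.130 ± 0.097) were lowest. The place of Areg differed between diets. It exceeded Erbb3 in 5 of 5 mice on 0% RPS (111 ± 35.8 against 62.0 ± 6.59 CPM per kb) and in 0 of 5 on 10% RPS (36.1 ± 12.1 against 70.5 ± 12.4), and in 3 of 5 on each of the 2 and 5% diets. On 10% RPS its mean was also below that of Erbb2 (55.8 ± 7.95). Ereg exceeded Egfr in 8 of 20 mice, and in none of the 5 on 10% RPS. Erbb3 exceeded Erbb2 in 19 mice, Tgfa exceeded Hbegf in 17, Btc exceeded Nrg1 in 16, and the other neighbours kept their order in all 20 mice. The order depended on the length used. Per kb of coding sequence, Tgfa (131) was above Areg (121), Erbb3 (101), Hbegf (83.7), and Erbb2 (74.4), and Ereg was at 31.0. Ereg varied most between mice, from 1.42 to 12.8 CPM per kb, followed by Areg (7.71-fold between the highest and lowest mouse), Nrg1 (4.74-fold), Btc (4.43-fold), and Hbegf (3.18-fold). Tgfa (1.53-fold) varied as little as the receptors Erbb3 (1.71-fold), Erbb2 (1.48-fold), and Egfr (1.45-fold), and Epgn was at 0 counts in some mice.

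Levels of the ligands were also compared from mouse to mouse within a diet. After the diet means were removed, 19 of 21 pairs of ligands had a Pearson r of log2 CPM above 0 over the 20 mice, as did 49.8% of all pairs of the genes tested. An r of 0.5 or more was found in 10 of these 21 pairs (47.6%), beside 9.32% of all gene pairs. Over all 45 pairs of members, r was at least 0.5 in size, in either direction, in 37.8%, beside 18% of all gene pairs. Of 45 pairs of members tested, 15 passed 0.05 for r after Benjamini-Hochberg adjustment (two-sided permutation of mice within diet), namely 9 ligand pairs and Erbb2 with Erbb3, all above 0, and 5 ligand and receptor pairs, all below 0. Without the 3 libraries that stood apart, 5 pairs passed over the remaining 17 mice, and Areg with Hbegf was the 1 ligand pair among them, although 21 of 21 ligand pairs were then above 0. Areg and Hbegf had r = 0.77 and Spearman's rho = 0.81 (permutation p = 6e-05 and 5e-05, adjusted 0.00157 and 0.00225), and r was 0.83 without the 2 mice farthest from the median. Ereg and Hbegf had r = 0.76 and rho = 0.77 (permutation p = 0.00225 and 0.00275, adjusted 0.0145 and 0.0184, r = 0.65 without 2 mice), but r = 0.72 with an adjusted permutation p of 0.0767 over the 17 mice. Btc and Nrg1 had r = 0.73 and rho = 0.71 (permutation p = 0.00188 and 0.0017, adjusted 0.0141 and 0.0153, r = 0.70 without 2 mice), and r = 0.68 with an adjusted permutation p of 0.0545 over the 17 mice. Mice with high levels of one of these 5 ligands thus tended to have high levels of the others. Tgfa stood outside most of this set. With Areg it had r = 0.03 (permutation p = 0.918, rho = -0.01, p = 0.97). With Hbegf it had r = -0.09 (permutation p = 0.689, rho = -0.07, p = 0.754), and r was -0.07 with Ereg and 0.13 with Btc. With Nrg1 it had r = 0.30 (permutation p = 0.238), and 0.55 over the 17 mice (permutation p = 0.0502, adjusted 0.135).

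Erbb2 and Erbb3 went the opposite way from Areg. The 5 pairs were Erbb2 with Areg, Hbegf, Nrg1, and Ereg, and Erbb3 with Areg. By rank, Ereg and Erbb2 (rho = -0.40, adjusted permutation p = 0.171) and Nrg1 and Erbb2 (rho = -0.56, 0.0608) did not pass, nor did either pass by r over the 17 mice. Areg and Erbb2 had r = -0.82 and rho = -0.78 (permutation p = 7e-05 and 0.00027, adjusted 0.00157 and 0.00607, r = -0.77 without 2 mice). Areg and Erbb3 had r = -0.66 and rho = -0.62 (permutation p = 0.0053 and 0.0114, adjusted 0.0238 and 0.0396, r = -0.54 without 2 mice). Over the 17 mice, Areg and Erbb3 passed by r but not by rank (adjusted permutation p = 0.0234 and 0.0589). The same held for Hbegf and Erbb2 (0.0447 and 0.0589). Erbb2 and Erbb3 varied together, with r = 0.78 and rho = 0.76 (permutation p = 0.00065 and 0.00051, adjusted 0.00975 and 0.00765, r = 0.70 without 2 mice). All values of a mouse come from 1 library, so its depth and tissue composition are shared by every pair.

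**Figure D3:**
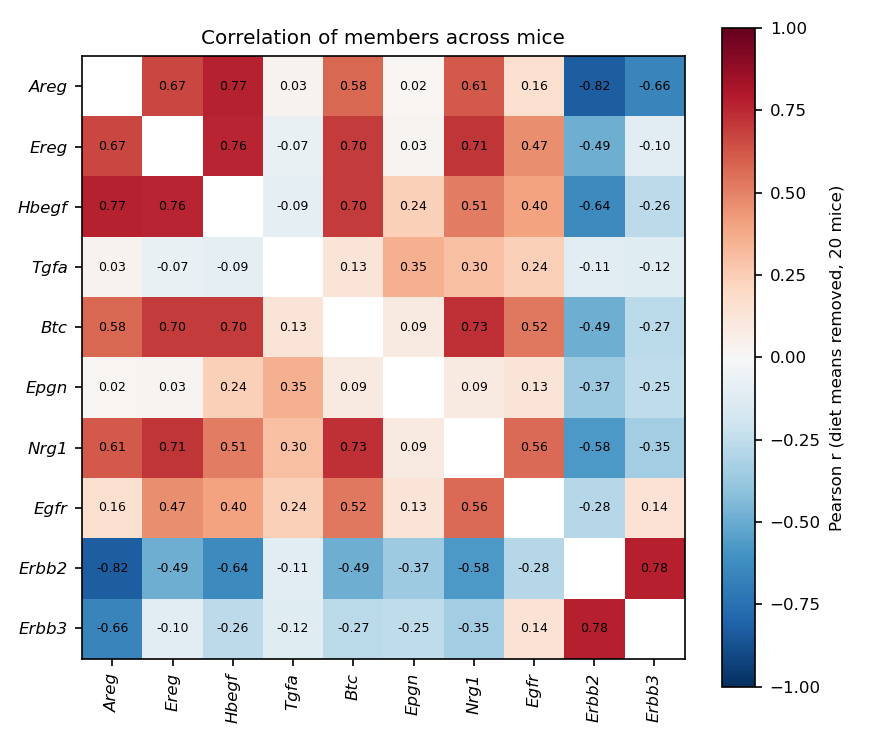
Pearson r between each pair of members over 20 mice, from log2 CPM with diet means removed (color scale from -1 to 1). Areg, Ereg, Hbegf, Btc, and Nrg1 form a block of positive values, Areg and Erbb2 have the lowest value (-0.82), and Tgfa and Epgn have weaker values with the other ligands.

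Areg, Tgfa, and Btc, the members with the smallest p with 10% RPS, were compared with all 15347 other genes tested. The genes most like Areg over the 20 mice were Dnajc21, a co-chaperone (r = 0.90, and 0.81 with diet means removed), Plk3, a polo-like kinase (0.87 and 0.74), and Slc1a4, a neutral amino acid transporter (0.87 and 0.78). For Tgfa they were Coro2a, a coronin (0.92 and 0.81), Ildr1, a protein of tricellular junctions (0.90 and 0.77), and Rflnb (0.90 and 0.79). For Btc they were Grwd1 (0.87 and 0.78), Ptgs2, the inducible cyclooxygenase (0.86 and 0.74), and F3, tissue factor (0.85 and 0.72). These were picked as the highest of many and carry no test.

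A set of 4 ligand genes are neighbours. On GRCm39, Epgn, Ereg, Areg, and Btc lie in this order within 376 kb of chromosome 5, and no other gene of the count table lies wholly inside that span. From the start of Areg, Epgn starts 112 kb and Ereg 65.3 kb before it, and the start of Btc is 263 kb after it on the other strand. The log2 fold changes with 10% RPS in this order were -0.94, -1.38, -1.63, and -1.01, of which those of Areg and Btc passed the threshold.

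The rest of the pathway was described with a list of 95 genes in 6 roles, of which 93 were tested. With 10% compared with 0% RPS, 6 of 93 genes were called lower and none higher, beside 0.495% of all genes called lower, and all 6 were feedback inhibitors of the cascade or transcripts known to be induced by growth factors. The median log2 fold change of the 93 genes was -0.033, beside 0.0041 for all genes. With 5% RPS 1 of 93 genes, Ier3, was called, beside 0.195% of all genes. With 2% RPS none was called by edgeR, with 11 of 93 at an unadjusted p under 0.05 (5.77% of all genes) and 1 called by DESeq2 (Ier3).

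The feedback inhibitors Spry2 and Dusp5 fell. Spry2 encodes Sprouty 2, an inhibitor of RAS signaling induced by receptor kinases. Its level was 36.0 to 41.5 CPM on 0%, 23.1 to 36.2 CPM on 2%, 26.9 ± 2.92 CPM (mean ± SD) on 5%, and 18.8 to 25.8 CPM on 10% RPS, so the 0 and 10% groups were far apart. The fall was 1.75-fold (log2 fold change -0.80, SE 0.12, edgeR adjusted p = 0.00551). Dusp5, a nuclear phosphatase of ERK, went from 13.4 to 25.7 CPM on 0% to 4.67 to 10.1 CPM on 10% RPS, without overlap (log2 fold change -1.31, SE 0.28, edgeR adjusted p = 0.0267). Of the 13 feedback inhibitors tested, 2 were called lower and 9 had estimates below 0 (0.495% and 49.1% of all genes). Their median was -0.23. At an unadjusted p under 0.05, 6 were lower and 1 was higher, beside 19.5% of all genes in either direction. Spry1, Dusp6, and Spry4 had log2 fold changes of -0.57, -0.75, and -0.65 that were not past the threshold. For Spry1, the fold change alone was short of the threshold.

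Among 20 growth factor induced transcripts, 4 fell and 16 had estimates below 0, with a median log2 fold change of -0.51, beside 0.495% called lower and 49.1% below 0 of all genes. Plau, the urokinase protease, went from 32.4 ± 8.84 to 13.6 ± 3.38 CPM (SD, n = 5, log2 fold change -1.26, edgeR adjusted p = 0.00818). Plaur, its receptor, went from 35.2 ± 10.6 to 12.8 ± 6.34 CPM (log2 fold change -1.46, edgeR adjusted p = 0.0376). The protease and its receptor were thus both lower on 10% RPS in this fit. Ier3, an early response gene, had a log2 fold change of -0.87 with 10% RPS (edgeR adjusted p = 0.00818) and of -0.76 with 5% RPS (0.0377). Klf10, a zinc finger factor, had a log2 fold change of -0.66 (edgeR adjusted p = 0.0267). The classic immediate early gene Egr1 had 66.8 to 188 CPM on 0% and 15.7 to 101 CPM on 10% RPS. These ranges overlapped, and Egr1 was not past the threshold (log2 fold change -1.29, edgeR adjusted p = 0.201). Egr2 and Egr3, in the same list and at low levels, had higher means on 10% RPS. The mean was 0.719 CPM on 0% and 1.12 CPM on 10% RPS for Egr2, and 1.44 and 3.42 CPM for Egr3.

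The other 4 roles had no gene past the threshold with 10% RPS. The ErbB ligands outside the members were low, at 2.08 CPM for Egf and 0.885 CPM for Nrg4 on 0% RPS. Nrg4, a ligand of ErbB4, had the smallest p among them and an estimate above 0 (log2 fold change 0.71, SE 0.25, edgeR adjusted p = 0.135), and Erbb4 was not analysed here. Of the 11 sheddases and partners, which include the proteases that release the ligands, Adam19 had the smallest p (log2 fold change 0.45, adjusted p = 0.084), and Adam17, the main sheddase of Areg and Tgfa, was at 46.5 ± 6.26 and 47.4 ± 4.20 CPM. Of the 15 receptor inhibitors, Errfi1, which blocks the kinase of the EGF receptor, had a log2 fold change of -0.71 (adjusted p = 0.0684), and its linear trend was called (slope -0.081 log2 units per 1% RPS, adjusted p = 0.046). Of the 30 adaptor and cascade genes, Hras had the smallest p (log2 fold change -0.47, adjusted p = 0.0586), and the median of this role was -0.047. The trend was called falling in 7 of 93 genes (0.730% of all genes), namely Dusp5, Errfi1, Ier3, Klf10, Plau, Spry1, and Spry2, and in 0 when mouse 1 of the 10% group was left out and up to 10 over all such fits. With the epithelium markers in the model the 6 calls with 10% RPS became 2, with the smooth muscle markers 0, and with the B cell markers 4, and leaving out 1 mouse gave 3 to 8. Without the 3 libraries that stood apart there were 6 calls with 10% RPS (Dusp6 in place of Plaur), 0 with 5%, and 12 trend calls.

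**Figure D4:**
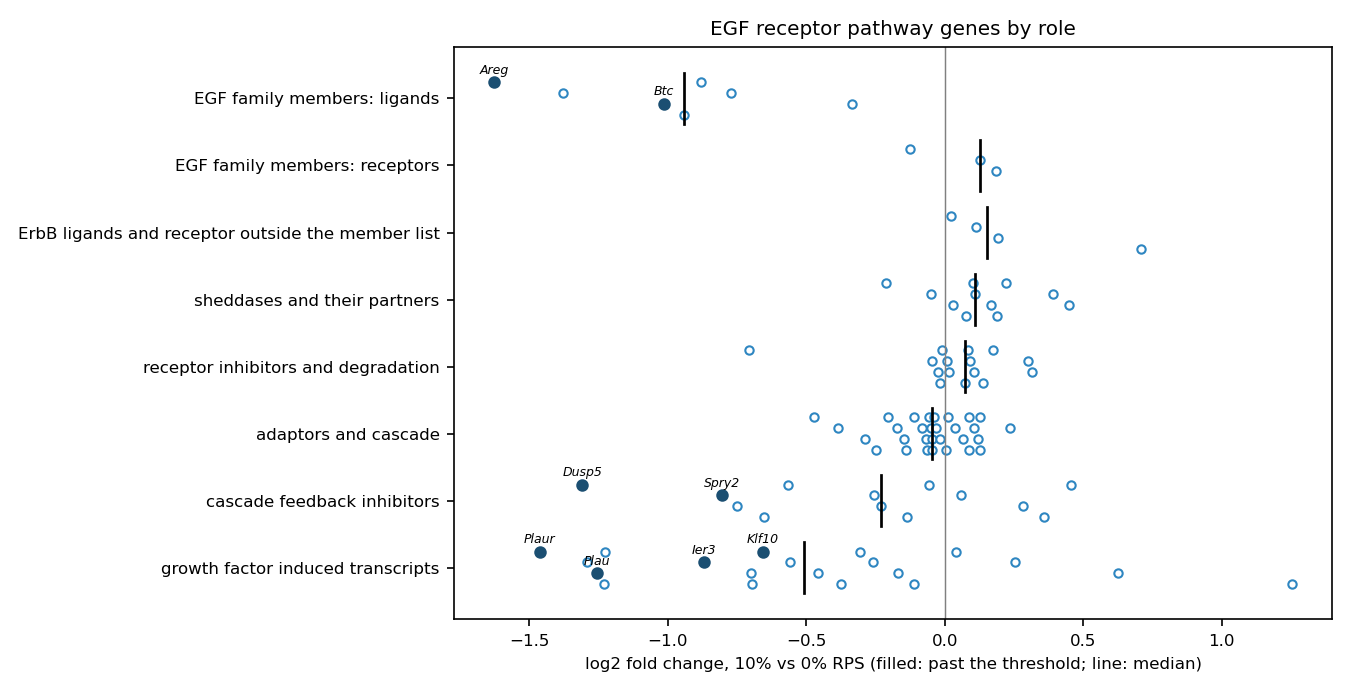
Log2 fold change with 10% compared with 0% RPS (x axis) of the members and of the other pathway genes, in rows by role, with 1 point per gene and a line at the median of each row. Filled points passed the threshold, and these are 2 ligands, 2 feedback inhibitors, and 4 growth factor induced transcripts, all below 0.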

How the data were processed

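The authors deposited 1 table of read counts per gene and mouse, without normalization, for the cecum of 20 mice. Per the study's methods, stranded poly(A) libraries were sequenced with single-end reads, low-quality nucleotides and ambiguous reads were removed, and CLC Genomics Workbench was used for mapping to GRCm39 and for counting. The annotation release, the strand setting, and the handling of multi-mapping reads are not given in the sources used here, so reads in overlapping genes could have been assigned in ways that change their counts. Mice were assigned to diets by the sample labels and are numbered 1 to 5 within a diet in sample order.

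Gene symbols and lengths came from GENCODE mouse release 39. Analysis used edgeR 4.0.16 under R 4.3.3 for tests, DESeq2 1.42.0 and sva 3.50.0 for alternatives, and Python 3.11.15 for correlations. Genes were filtered with filterByExpr (minimum count 10, minimum total 15), counts were scaled by TMM, and a robust quasi-likelihood model of the 4 diets was fitted to 20 mice. Standard errors came from the fold change and the F statistic. P-values were adjusted over all 15348 genes tested by the Benjamini-Hochberg method, and genes were called at an adjusted p of at most 0.05 and a fold change of at least 1.5 (trend and any-difference tests had no fold threshold). Correlations used log2 CPM with a prior count of 2 and 100000 permutations. Counting limits of 3 counts cover counting error only. No pair of mice on a diet agreed within sampling noise. A library was taken to stand apart where its lowest chi-square to its diet mates exceeded 1.5 times every pair among those mates, and the fit without these 3 libraries, like the B cell covariate, was added after the data were seen.

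The members, gene lists, and tests were chosen with earlier results of these data known. All members were named, with each pathway gene called in any comparison, the gene of smallest p in each role with 10% RPS, and, for the 3 members of smallest p, the 3 genes of highest correlation. Dusp6, Spry4, Egr1, Egr2, Egr3, Egf, and Adam17 were named after their values were seen. Alternatives were DESeq2's size factors or test, other filters, no robust step, a fit of 2 diets, covariates (1 surrogate variable, or markers of epithelium, smooth muscle, or B cells), immunoglobulin genes left out, other fold thresholds, the rank of the dose, other lengths, and each mouse left out.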

Additional observations from a re-analysis of the deposited data

Results flagged for a closer look

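In 40 groups of 5 mice (10 members on 4 diets), 2 held a mouse whose gap to the nearest other exceeded Dixon's critical value of 0.71, a rate that chance alone gives in about 1 of 20 groups. Tgfa in mouse 5 on 0% RPS was 108.16 CPM, where the nearest mouse had 96.6 CPM. The library of this mouse is also 1 of the 3 that stood apart. Without that mouse the log2 fold change of Tgfa with 10% RPS was -0.28. Epgn in mouse 1 on 0% RPS was 0.553 CPM, where the nearest mouse had 0.263 CPM.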

How the results depend on the processing

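No paired analysis was possible because no mouse number is shared by any 2 diets in the labels. Of 10 members, the number called with 10% compared with 0% RPS was 2, and it was 3 with DESeq2 (Areg, Hbegf, and Btc) and 3 without the fold threshold. It was 1 with no filter on low counts, without the robust step, with only the 2 diets in the fit, and with 1 surrogate variable, and in each of these Areg was the member called. It was 0 with the epithelium, smooth muscle, or B cell markers as a covariate and with glmTreat, and 0 to 2 without 1 mouse. The trend called 1 member, and 4 with DESeq2, 3 with the rank of the dose, 0 with no filter or with any of the 3 marker covariates, and 0 to 3 without 1 mouse. Leaving out together the 3 libraries that stood apart gave 4 trend calls among the members, 0 pathway calls with 5% RPS and 12 for the trend, and 5 in place of 15 correlated pairs. For any difference among the diets DESeq2 called 3 members and edgeR 0.

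The pathway list had 6 calls with 10% RPS, 1 with 5%, 0 with 2%, and 7 for the trend. DESeq2 gave 11, 4, 1, and 12. The epithelium covariate gave 2, 0, 0, and 0, the smooth muscle covariate 0 in each, and the B cell covariate 4, 2, 0, and 2. With glmTreat there were 0 calls with 10% and 0 with 5% RPS. With 5% RPS there were 2 calls without the robust step, without immunoglobulin genes, or with at least 10 counts in every mouse. Leaving out 1 mouse gave 3 to 8 calls with 10% RPS, 0 to 3 with 5% RPS, and 0 to 10 for the trend.

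No estimate that changed sign was called. The epithelium covariate moved Erbb2 with 5% RPS to 0.010, and leaving out the 3 libraries that stood apart moved it to 0.038. The smooth muscle covariate moved Egfr to 0.00029 with 10%, 0.018 with 5%, and 0.043 with 2% RPS, to -0.017 between 10% and 5%, and Epgn with 2% RPS to 0.019. The B cell covariate moved Egfr between 10% and 5% RPS to -0.014. Without 1 mouse the ranges with 5% RPS were -0.72 to 0.31 for Ereg, -0.79 to 0.0051 for Epgn, -0.063 to 0.023 for Erbb2, and -0.066 to 0.039 for Erbb3. With 2% RPS they were -0.42 to 0.22 for Epgn and -0.078 to 0.053 for Egfr. Between 10% and 5% RPS they were -0.10 to 0.025 for Tgfa, -0.32 to 0.013 for Nrg1, and -0.019 to 0.052 for Egfr, and the Erbb2 slope was -0.0011 to 0.012. The cause was not tested.

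Of 2535 alternative values, 2250 kept their direction and their side of the threshold or stayed within the spread, 48 lost and 19 gained a call, 185 moved by more than that, and 33 changed sign. Counts limit only Epgn, with at most 19 counts per mouse.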
